A study of Mus musculus with 20 samples.

Results

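Vascular and fibroblast wells of the developing mouse habenula were examined in a single-cell series of 15 plates, each with up to 384 wells. Kept wells, 3729 of 5756, had 1000 or more counts without those of spike-ins and of mitochondrial genes, 500 or more genes detected and no more than 20% mitochondrial counts. It counted as endothelial with at least 1 count of 3 or more of Cldn5, Flt1, Pecam1, Cdh5 and Kdr, and as mural or fibroblast with 3 or more of Pdgfrb, Rgs5, Kcnj8, Vtn, Col1a1, Col3a1 and Dcn. This gave 214 wells, 5.74% of the kept wells: 54 passed the endothelial list alone, 146 the mural or fibroblast list alone and 14 both. The other 3515 kept wells served for comparison. The 12 marker genes chose the wells, so their levels are given as a description with no test.

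The series plates came from the Brn3a-tauLacZ mouse line, which carries a tau-LacZ reporter at Pou4f1 (older name Brn3a), with 2 plates at each of embryonic days (E) 11, 13, 15 and 18, postnatal days (P) 4 and 7 and in the adult, and 1 plate at E12. The sources used here do not give the genotype at the reporter or a sort gate, and no label ties a plate to an animal, so a p-value over plates measures only the spread between these plates, which may be technical. All stages share this line, so no wild-type control enters the comparisons. Another 5 plates, the second set, were made from C57BL/6 animals at E18: 2 for the left habenula, 2 for the right and 1 for both sides. The chemistry was Cel-seq2, which tags each transcript with a 6-base molecular identifier and reads its 3' end. The same 384 cell barcodes serve every plate by design, and 380 of these well numbers were present on all 15 plates, so a shared barcode does not mark a shared cell. Kept wells held 758697 to 7760372 counts per plate, and the plate medians ran from 4408 counts per well on adult plate 1 to 22080 on P7 plate 1.

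Blood vessels grow into the neural tube from outside it. Brain endothelial cells form the blood-brain barrier, with tight junctions, nutrient carriers and efflux pumps that Wnt/beta-catenin signalling from neural cells helps to induce. Mural cells wrap the endothelial tube: pericytes sit on capillaries within the basement membrane, and smooth muscle cells ring the larger vessels. Fibroblasts of the meninges and of the perivascular space deposit fibrillar collagen, and they lie outside the tube.

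The 214 wells were spread unevenly over the plates, as the plot of wells per plate shows. E11 plate 1 held 4 and E11 plate 2 none of its 345 kept wells, which allows a share of up to 0.870%. There were 6 on the E12 plate, and 6 and 63 on the 2 E13 plates. At E15 plate 1 held 4 and plate 2 none of 302, which allows up to 0.993%. E18 plates held 19 and 12, P4 plates 3 and 2, P7 plates 34 and 6, and adult plates 9 and 46. E13 plate 2 stood apart, with 46.0% of its 137 kept wells passing a list, and adult plate 2 gave 30 of the 54 endothelial wells.

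**Figure D1:**
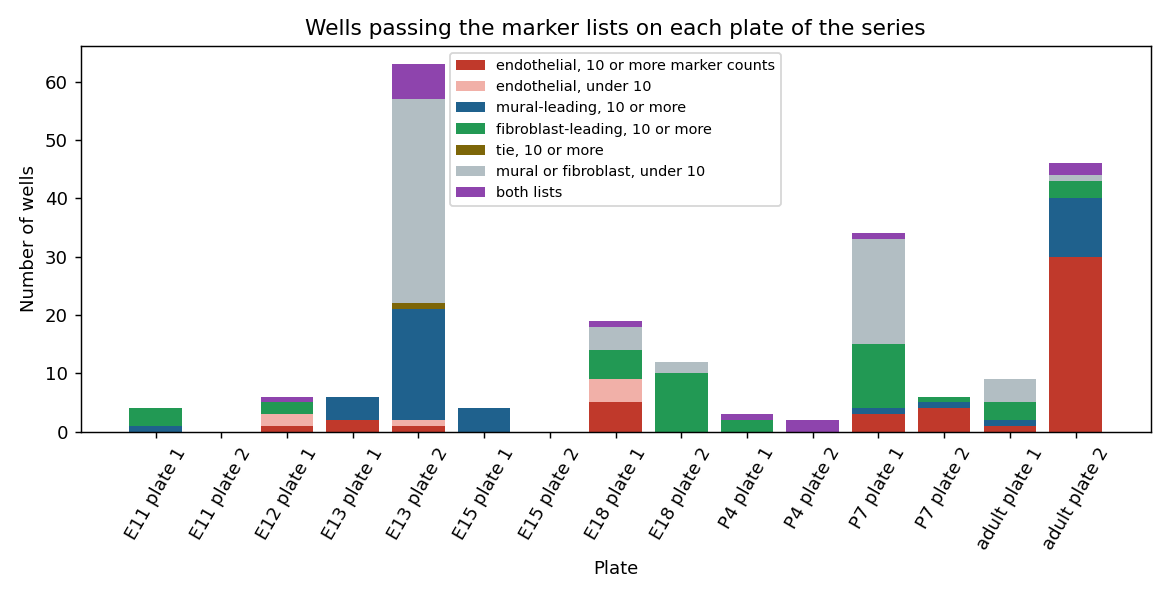
Number of wells (vertical axis) passing the marker lists on each of the 15 plates, split by list and by the summed counts of the list's markers, with mural-leading and fibroblast-leading wells set apart among those with 10 or more. E13 plate 2 holds 63 wells, of which 35 are mural or fibroblast wells with under 10 marker counts, and adult plate 2 holds 30 endothelial wells.

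The marker counts did not bear out the labels for every well. Among wells passing only the mural or fibroblast list, 64 of 146 held under 10 counts of its 7 markers together, and 53 of these 64 lay on E13 plate 2 (35 wells) and P7 plate 1 (18 wells). These sparse wells had Pou4f1, a habenula neuron transcription factor, in 70.3%, the neuronal tubulin Tubb3 in 90.6% and the neuronal gene Stmn2 in 92.2%, and their median depth was 18961 counts. Other wells of all plates had the same genes in 81.4%, 89.0% and 91.6%. Ttr, the transthyretin gene of the choroid plexus, was in 59.4% of them against 7.03% of other wells of all plates. It reached 1877 counts in them and 1052 in other wells. It was not particular to them: the mural-leading wells described below had it in 46.3% and the wells passing both lists in 42.9%. The 64 wells are called sparse wells here, and their cell type was not settled. Genes of the mural list, which holds no marker of the rule, stood at 519 to 1284 CPM (counts of a gene per 1000000) in the sparse wells of 5 plates, against 909 to 2170 CPM in other wells. The exception was the single sparse well of adult plate 2, at 40956 CPM, where the mural-leading wells described next reached 40386 CPM. The choroid and ependymal list was at 8213 CPM in the sparse wells of E13 plate 2 and the progenitor list at 13760 CPM in the 4 of E18 plate 1. Over all 15 plates the other wells reached at most 3072 CPM of the first list and 3768 CPM of the second. Neuron wells, here wells that failed both lists and held at least 3 counts each of Pou4f1 and Stmn2, also carried the markers. On E13 plate 2, 76.2% of 21 such wells (median 13892 counts) had Rgs5 and 52.4% had Vtn, and on P7 plate 1, 38.5% of 252 (median 23543 counts) had Col3a1 and 27.8% had Col1a1. Other plates had such counts too: Col3a1 was in 56.8% of 81 neuron wells on E18 plate 2, and Rgs5 and the endothelial marker Flt1 were each in 26.2% of 141 on adult plate 2. On the E12 plate Flt1 was in 14.0%, Pecam1 in 13.5% and Kdr in 13.0% of 215 neuron wells. These shares are the background against which 3 markers with 1 count each have to be read. On the endothelial side 7 of 54 wells held under 10 marker counts, 4 of them on E18 plate 1. A list of further endothelial genes, with no marker of the rule, stood at 221 to 316 CPM in these wells. It stood at 9832 to 22022 CPM in endothelial wells with 10 or more marker counts and at 97.8 to 263 CPM in other wells. The 7 are called sparse endothelial wells, their cell type was not settled, and they stay in the endothelial sums below.

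Wells with 10 or more marker counts fell into 3 groups, a split made after the values were seen. They numbered 47 endothelial wells (median 3525 counts per well), 41 mural-leading wells (7927 counts) and 40 fibroblast-leading wells (7245 counts), where a mural or fibroblast well was named by the larger of Rgs5 plus Kcnj8 and Col1a1 plus Dcn, and 1 well was a tie. The other kept wells were deeper, with a median of 13119 counts. Flt1, a receptor of vascular endothelial growth factor (VEGF), was seen in 100% of the 47 endothelial wells, and Cldn5, a tight junction protein, in 95.7%. Rgs5, a regulator of G-protein signalling in pericytes, was seen in 97.6% of mural-leading wells and in 0 of 40 fibroblast-leading wells, a split that the naming by Rgs5 in part fixes. Vtn, which encodes vitronectin, did not separate the pair, with 100% of mural-leading and 82.5% of fibroblast-leading wells. Cdh5, the endothelial cadherin, was not limited to the endothelial wells: it had a count in 72.3% of them, in 55.0% of fibroblast-leading, 34.1% of mural-leading and 9.25% of other wells.

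**Figure D2:**
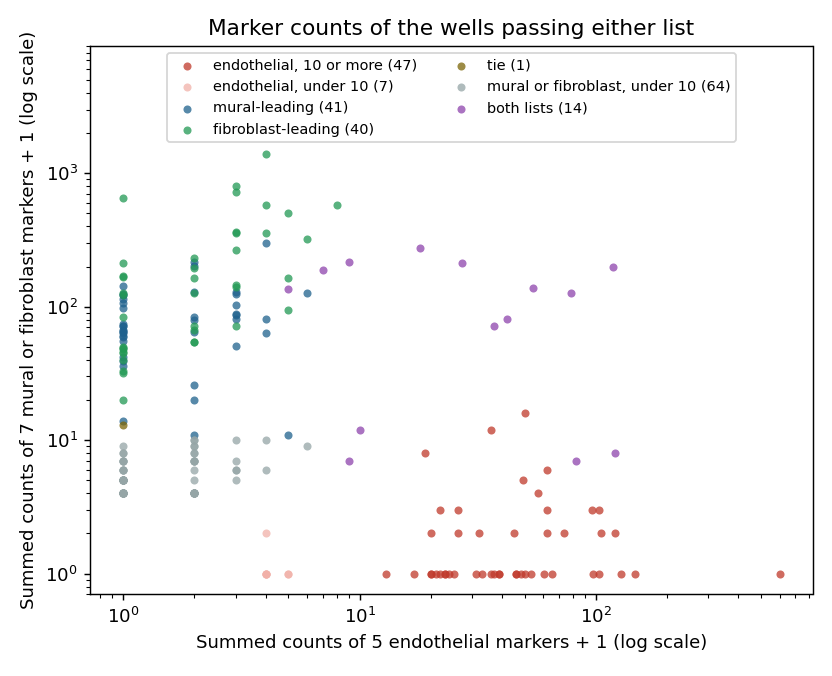
Each point is 1 of the 214 wells, with the summed counts of the 5 endothelial markers (horizontal, plus 1, log scale) against those of the 7 mural or fibroblast markers (vertical, plus 1, log scale). The 47 endothelial wells with 10 or more counts lie apart from the mural-leading and fibroblast-leading wells, and the 64 sparse wells lie between 3 and 9 counts of their list. The rule and the cut at 10 counts use these same sums, so they fix most of this separation. Wells passing both lists form their own class.

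Just inside and just outside the rule the 2 lists differed. Wells with exactly 3 endothelial markers (25 wells) had a median of 17.0 counts of the list, against 2.0 in the 100 wells with exactly 2. For the mural or fibroblast list the medians were 4.0 in 62 wells and 2.0 in 181 wells. Wells with 3 markers hold at least 3 counts and those with 2 at least 2, so the rule fixes part of both steps. No doublet caller was run. The 14 wells passing both lists had a median of 17454 counts, and 7 of them held at least 10 counts of each list. Whether they are doublets or attached cell pairs was not tested.

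Promoter sequences of the endothelial marker genes are shown because this list defines the endothelial wells. RefSeq promoters (GRCm38.p6, from before the start to just after it, read 5' to 3' on the gene's strand) were matched for 3 of the 5 genes. The motif searched was GGAAGT, the core of a binding site of ETS factors, a family that acts in endothelial genes, on both strands (ACTTCC on the other), and it is in capitals. Flt1 lies at chr5:147725962-147726261 (minus strand), Kdr at chr5:75978406-75978705 (minus strand) and Cldn5 at chr16:18776597-18776896 (plus strand).
Flt1: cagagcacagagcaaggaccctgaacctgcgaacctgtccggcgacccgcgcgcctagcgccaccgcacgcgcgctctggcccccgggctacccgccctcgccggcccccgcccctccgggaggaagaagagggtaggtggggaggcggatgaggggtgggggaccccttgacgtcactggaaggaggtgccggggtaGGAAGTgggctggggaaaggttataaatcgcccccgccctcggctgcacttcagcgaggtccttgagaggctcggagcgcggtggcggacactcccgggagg
Kdr: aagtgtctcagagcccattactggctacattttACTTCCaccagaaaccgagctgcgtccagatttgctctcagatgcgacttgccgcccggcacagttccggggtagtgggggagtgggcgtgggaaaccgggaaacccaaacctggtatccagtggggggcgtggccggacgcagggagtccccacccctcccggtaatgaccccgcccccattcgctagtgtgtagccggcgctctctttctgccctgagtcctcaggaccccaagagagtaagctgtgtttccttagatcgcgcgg
Cldn5: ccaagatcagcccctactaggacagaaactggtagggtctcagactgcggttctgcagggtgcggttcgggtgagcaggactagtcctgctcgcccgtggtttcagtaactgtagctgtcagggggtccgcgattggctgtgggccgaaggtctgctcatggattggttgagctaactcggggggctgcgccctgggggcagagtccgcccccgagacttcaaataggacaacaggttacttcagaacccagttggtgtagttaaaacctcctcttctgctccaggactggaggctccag
The Flt1 and Kdr windows each held 1 match and the Cldn5 window none. Of all 32851 promoters 23.8% held the motif. Among genes tested between endothelial and other wells that had a promoter entry, 31.3% of 8207 held it in at least 1 promoter, and among those called higher in endothelial wells 28.1% of 303. A match describes letters in this window and is not shown to be a bound site.

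Endothelial wells were compared with the other kept wells of the same plate, to describe which further genes go with the marker list. Counts were summed per plate and group on the 5 plates with at least 3 endothelial wells (E12, E18 plate 1, both P7 plates and adult plate 2) and fitted with edgeR. Since the wells were chosen by counts in these same wells, no p is given, and a gene is called where its fitted difference reached 2 on the log2 scale with the same sign on every plate. Levels are CPM of the summed counts of a group on a plate. Of 10793 genes tested, 416 were called higher (3.85%) and 1044 lower (9.67%), and the median difference over all genes was -0.54. The count of lower genes was much larger without E18 plate 1 and with 10 or more marker counts, as given at the end. Some endothelial sums were small, with 3 wells at a median of 8454 counts on P7 plate 1 and 4 at 3665 on P7 plate 2. A low gene can have 0 counts in such a sum by sampling and be called lower. The part of this in the lower calls was not tested, so they are not a count of repressed genes. The E12 values rest mostly on 1 well with 101757 counts, above 3 times its plate's median, against at most 15693 in each of the other two, both sparse, and 4 of the 9 wells summed on E18 plate 1 were sparse.

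The largest difference was in Eng, endoglin, a co-receptor for transforming growth factor beta and BMP9 (ENSMUSG00000026814, GRCm38 chromosome 2, 32646595 to 32682669, plus strand, overlapping Fpgs on the other strand and Gm47291 on the same strand, and so uncertain). Its level in endothelial wells was 341 CPM at E12, 441 at E18, 907 and 1175 at P7 and 589 in the adult, against 0 to 1.75 CPM in other wells. The fitted difference was 9.05 ± 0.59 (SE, n = 5 plates), and the groups did not overlap. The same held for Foxq1, a forkhead transcription factor, at 259, 79.0, 580.3, 479 and 569 CPM in the same plate order against 0.178 to 2.19 (8.57 ± 0.60), and for Zfp366, a zinc finger protein, at 111, 147, 435, 174 and 383 against 0 to 2.07 (8.74 ± 0.66). Cd34, a sialomucin of vascular and blood progenitor cells, stood at 754, 294, 689, 696 and 529.8 CPM against 0.287 to 6.35 (8.41 ± 0.57). These genes were picked for their large differences, and the share of all genes tested without such overlap is not given here.

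The other 8 genes with the largest differences were the receptor Acvrl1, the adhesion molecule Icam2, fibronectin (Fn1), the transcription factor Sox17, Cd93, Ctla2a, Slfn5 and Tmem252, with differences between 7.94 and 8.53. Of the 32 genes of the endothelial list, which holds Eng, Icam2, Cd34 and Sox17 of those just named, 28 passed the filter on low counts and 26 of these were called higher, with a median of 6.93. Because a low gene passes that filter only where it is high, this count is a description, as are all list counts against other wells below. Those called include Tek and Tie1, receptors of the angiopoietin system, and Sox18, Erg and Fli1, transcription factors of endothelial cells. Tie1 ranged from 192 CPM on E18 plate 1 to 1058 at E12, and Tek from 72.5 CPM on P7 plate 1 to 870.3 on P7 plate 2. The sums of E18 plate 1 and E12 hold sparse endothelial wells. Markers of neurons ran the other way: 9 of 10 neuron genes were called lower (median -2.62), and the summed neuron list stood at 748 to 5184 CPM in endothelial wells over 8 plates against 3704 to 15102 in other wells over 15. Defining microglia genes reached 0 to 2014 CPM together in endothelial wells, the top value on E18 plate 1, where 4 sparse wells had 3866 CPM and the other 5 had 158, and erythroid genes 0 to 1291 CPM with a median of 0. Their part in the results was not tested.

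Several carriers of the blood-brain barrier were found in endothelial wells on all 5 plates, though not every gene of the list was. Of 29 genes on this list 25 passed the filter and 20 were called higher (median 4.82), again as a description. Slc2a1, the glucose carrier GLUT1, was at 2052 CPM at E12, 859 at E18, 435 and 2179 at P7 and 2603 in the adult, against 5.89 to 46.4 in other wells. Mfsd2a, a lysophospholipid carrier that also limits transcytosis, was at 289, 474, 580.2, 914 and 245 CPM against 0.710 to 14.3. Slco1c1, a thyroid hormone carrier, was at 386, 1007, 1089, 3623 and 2072 CPM against 2.63 to 11.0. The efflux pumps Abcb1a and Abcg2 had 36.2 to 1286 and 174 to 952 CPM. For all 5 genes the lowest endothelial plate lay above the highest plate of other wells. The share of all genes tested with such a gap is not given here, so this is a description of picked genes.

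Members of signalling pathways were split. In the Wnt list 6 of the 14 genes that passed the filter were called higher, among them the receptor Fzd6, the co-receptor Adgra2 (GPR124) and the pathway's feedback genes Apcdd1 and Nkd1. The target gene Axin2 was not called, at 66.4 to 130.4 CPM in endothelial and 61.4 to 82.9 in other wells, and neither was Lef1, at 333, 259.7, 363, 305 and 1079.7 CPM against 435, 289, 117, 129 and 77.7. Lef1 was thus below the other wells on both embryonic plates and above them on the 3 postnatal ones. In the list of VEGF, angiopoietin and TGF-beta genes 13 of 25 that passed were called higher, among them Pdgfb, the ligand that recruits pericytes, at 543, 147, 508, 348 and 746 CPM against 3.93 to 16.0. The ligand Vegfa was called lower, at 0 to 56.4 CPM against 32.0 to 86.4, a level at which a small sum can hold 0 counts by sampling. Of the Notch and arteriovenous list, 5 of 11 were called higher: the ligand Dll4, the receptors Notch1 and Notch4 and the targets Hey1 and Hes1. Dll4 ranged from 11.3 CPM on E18 plate 1, whose sum holds sparse endothelial wells, to 653 on P7 plate 1. In the basement membrane list 15 of 17 were called higher (median 5.02), including Sparc at 2249 to 10339 CPM against 17.4 to 613.5.

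Whether endothelial genes change with stage was tested on the summed endothelial wells, with E12 and E18 plate 1 before birth against both P7 plates and adult plate 2 after it. By edgeR's quasi-likelihood test 0 of 2615 genes passed an adjusted p of 0.05 in either direction (0%), 281 (10.7%) had an unadjusted p under 0.05, and DESeq2 called 9 higher and 9 lower. The genes of smallest p are therefore given with their values and not as changes. Sox11, a transcription factor of immature cells, was at 1258 and 271 CPM before birth and at 0, 0 and 19.6 after (log2 difference -5.84 ± 1.01, edgeR adjusted p 0.161). It was at 1992 and 1221 CPM in other wells before birth and at 72.2 on P7 plate 1 and 38.3 in the adult. Both embryonic sums hold sparse endothelial wells, and all wells of that kind came from embryonic plates. By plate, the progenitor list stood at 1546 to 8452 CPM in sparse endothelial wells and at 323 to 1187 CPM in the remaining endothelial wells. The part of the sparse endothelial wells in the Sox11 values was not tested. Car4, a membrane-bound carbonic anhydrase of brain capillaries (ENSMUSG00000000805, chromosome 11, 84957786 to 84966044, plus strand), had 0 counts on both embryonic plates and was at 290.0, 174 and 707 CPM after birth (edgeR adjusted p 0.161), while other wells had at most 4.74 CPM. Tac2 and Nrgn also had small p-values, but both are neuron genes: Tac2 was at 181 and 217 CPM in endothelial wells at P7 and at 761 and 664 in other wells of the same plates. The part of neuronal RNA in those values was not tested. Without E18 plate 1, 4 genes were higher and 17 lower after birth, but that fit has the E12 plate alone before birth, takes its spread from the postnatal plates and assumes that E12 varies like them.

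The endothelial wells with 10 or more marker counts add E13 and adult plate 1, as a description of genes picked after their values were seen. Plvap, the diaphragm protein of leaky vessels (ENSMUSG00000034845, chromosome 8, 71497765 to 71511752, minus strand, overlapping Gtpbp3 on the other strand), had counts in 3 of 4 wells at E12 and E13, with 96.1 counts in the E12 well and 0, 6.0 and 25.1 in the 3 E13 wells. It was seen in 0 of 43 wells at E18 and later, which allows up to 6.98% of wells with a count. Such a limit is on wells with a count at their depth and not on cells that express the gene. In the other wells Plvap was present at a low level at both times, in 9.47% of them at E12 and in 15.2% in the adult (median depths 13344 and 11492 counts), with at most 5.0 counts in any well of any stage. The early wells were the deeper ones, with a median of 18140 counts against 3322, and after thinning each well to 2000 molecules Plvap was left in 1 of the 4.

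Slco1a4, an organic anion carrier of the mature barrier (ENSMUSG00000030237, chromosome 6, 141805440 to 141856199, minus strand), ran the opposite way. It was in 0 of 9 endothelial wells before birth, which allows up to 33.3% of wells with a count, in 4 of 7 at P7 and in 28 of 31 in the adult, where the median was 6.0 counts. The adult wells were the shallower ones (median 2928 counts per well against 11995 before birth), and after the same thinning 24 of 26 adult wells had it, 5 being too shallow. The share of other wells with Slco1a4 was 1.73% at E18 and 5.25% in the adult. Car4 was in 0 of 9, 3 of 7 and 22 of 31 wells, and Ly6a, which encodes the surface antigen Sca-1, in 2 of 9, 2 of 7 and 30 of 31. Slc2a1 was in all 47 wells, from 1.0 to 278 counts. In the test over plates none of these passed: the edgeR adjusted p was 0.268 for Slco1a4, 0.352 for Ly6a and 0.965 for Slc2a1. On adult plate 2 the endothelial wells also held 16297 CPM of immediate early and heat-shock genes, against 5545 in other wells, and that plate supplied 30 of the 31 adult wells.

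**Figure D3:**
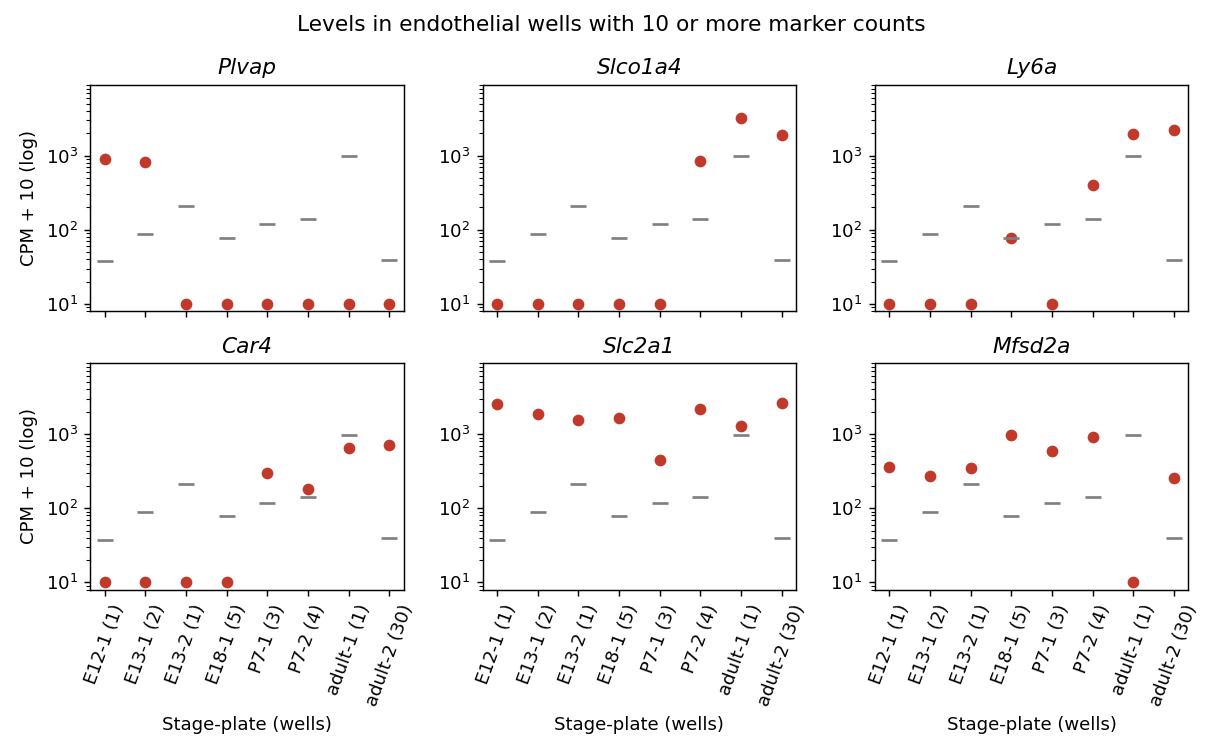
CPM plus 10 (log scale) of 6 genes in the summed endothelial wells with 10 or more marker counts, 1 red point per plate, with the number of wells in brackets, and a grey dash at the level of 3 counts on that plate. Plvap is above its dash only at E12 and on E13 plate 1, Slco1a4 only on P7 plate 2 and the adult plates, and Slc2a1 lies above it on every plate.

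Mural or fibroblast wells were compared in the same way with the other wells on 9 plates. Of 9470 genes tested, 83 were called higher (0.876%) and 6 lower (0.0634%), with a median difference of -0.17. These sums hold the sparse wells. With at least 10 marker counts, an alternative chosen after the data were seen, 126 genes were higher and 377 lower, and without adult plate 1 the counts were 191 and 39. Foxc1, a forkhead factor of meningeal and vascular mesenchyme (ENSMUSG00000050295, chromosome 13, 31806633 to 31812476, plus strand), had the largest difference, 7.28 ± 0.64 (SE, n = 9 plates), with means of 255 and 1.85 CPM. Igf2, the fetal growth factor, followed with 2682 against 45.9 CPM (6.86 ± 0.80), and it is uncertain because Gm49394 shares its locus on the same strand with the same counts.

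The remaining genes with the largest differences encode matrix for the most part. They were biglycan (Bgn, 560.5 against 6.30 CPM), Col1a2 of fibrillar collagen (1489 against 16.8 CPM), the procollagen enhancer Pcolce (140.1 against 1.61), Col4a1 of basement membrane collagen (1751 against 23.3) and the laminin chain Lamb1 (315 against 5.08). Next to them stood nidogen (Nid1), the amino acid carrier Slc6a20a, apolipoprotein D (Apod) and Emp3, with differences of 6.49, 6.31, 5.57 and 5.24. In the basement membrane list 7 of 17 genes that passed were called higher, in the mural list 4 of 14 (Foxc1, Slc6a20a, Ndufa4l2 and Ednra, the endothelin receptor) and in the fibroblast list 5 of 16 (Foxc1, Igf2, Col1a2, Col5a2 and Lama1). These list counts too are descriptions, since a low gene passes the filter only where it is high. All 10 neuron genes had a fitted difference below 0 (median -1.60), and 1 of them, Elavl3, was called lower. The summed neuron list reached 411 to 6850 CPM in these wells over 12 plates, and 678 to 8872 in the sparse wells alone.

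Mural-leading wells of different stages differed in Abcc9, Acta2 and Tagln of the mural list and in the marker Kcnj8, genes picked after their values were seen. Kcnj8 helped choose and name these wells, so its counts are given as a description only. Of the 41 wells, 1 was from E11, 23 from E13, 4 from E15, 2 from P7 and 11 from the adult. E13 plate 2 gave 19 of the E13 wells, and E15 plate 1 gave all 4 of E15. The wells are thus not replicates of a stage, and stage and plate cannot be told apart here. Kcnj8 and Abcc9, the subunits of the potassium channel of pericytes, were in 26 and 27 of the 27 wells at E13 and E15, with E13 medians of 6.0 and 17.0 counts. In the adult they were in 0 of 11 and in 1 of 11. Smooth muscle actin, Acta2 (ENSMUSG00000035783, chromosome 19, 34241090 to 34255590, minus strand), went the other way, with counts in 4 of the 27 embryonic wells, at most 8.0, and in 11 of 11 adult wells, from 22.1 through a median of 66.5 to 145.5 counts. Tagln, another smooth muscle gene (overlapping Pcsk7 on the other strand), was in 5 of 27 and in 11 of 11. After thinning to 2000 molecules Kcnj8 was in 20 of 27 and 0 of 11 wells and Acta2 in 0 of 27 and 11 of 11, with no well too shallow. The 2 P7 wells resembled the embryonic ones in this respect, with Kcnj8 and Abcc9 in both and no Acta2.

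Rgs5 and Pdgfrb were counted at E13, at E15 and in the adult, which the choice of wells fixes for Rgs5 and in part for Pdgfrb. Rgs5 had medians of 27.1 counts at E13, 41.2 at E15 and 46.3 in the adult, while Notch3, the Notch receptor of mural cells and not used to choose the wells, had medians of 7.0, 6.0 and 8.0. These counts are not scaled for depth. In CPM, Rgs5 ran from 34.2 to 5662 over the E13 wells, from 4928 to 10105 at E15 and from 1993 to 13129 in the adult. Pdgfrb, the receptor for the endothelial ligand PDGF-B, was in 21 of 23 wells at E13, in all 4 at E15 and in all 11 in the adult. The adult wells were shallower, with a median of 4864 counts against 12125 at E13 and E15. Of the 11 adult wells 10 came from adult plate 2, where all mural or fibroblast wells together held 15911 CPM of immediate early and heat-shock genes against 5545 in other wells, and the part of this in the adult values was not tested. Casq2, a calcium store protein of muscle (overlapping Gm43244 on the same strand), was in 10 of the 11 adult wells and in 0 of 28 before birth, which allows up to 10.7% of wells with a count. Adult wells outside the list also held Acta2, in 42.9% of 343 with up to 108 counts, so RNA of this gene was widespread on the adult plates. Kcnj8 was in 0.875% and Abcc9 in 1.17% of those wells, while at E13 other wells had them in 3.17% and 18.6%. Igf2 was in 27 of 27 wells at E13 and E15 (E13 median 72.6 counts) and in 2 of 11 in the adult, while in other wells it was in 47.1% at E13 and 6.41% in the adult. The 2 adult wells that passed both lists had Kcnj8, with 3.0 and 5.0 counts, so that transcript was found in the adult outside the mural-leading wells.

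**Figure D4:**
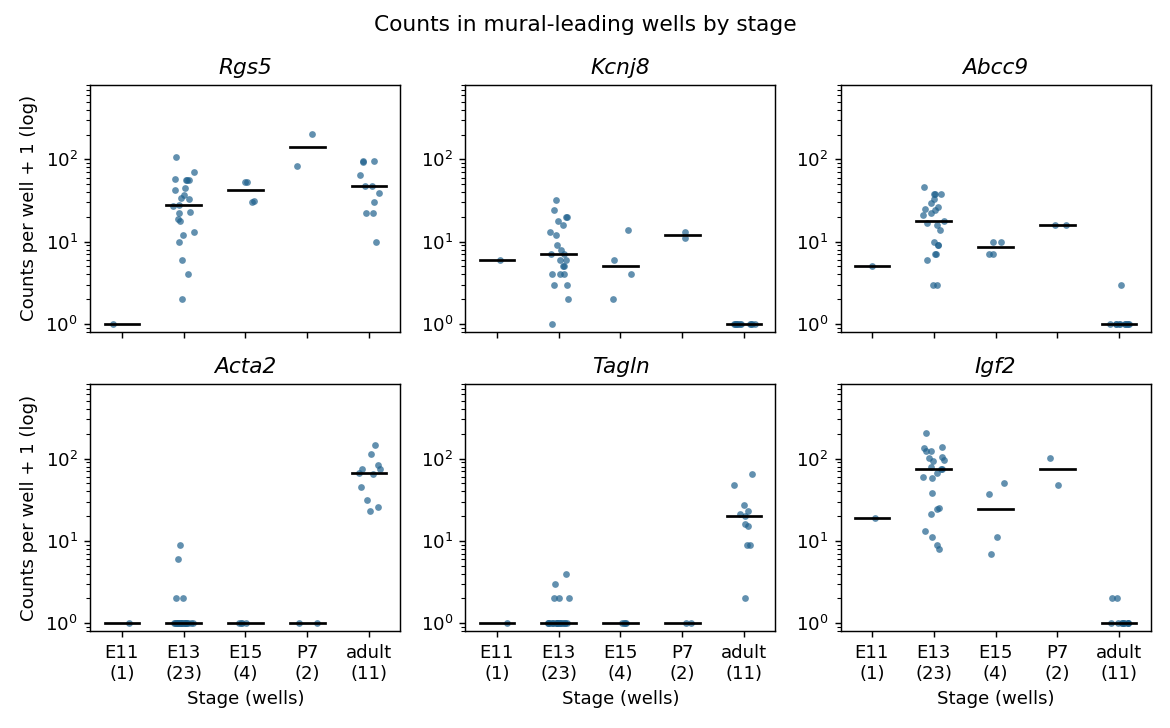
Counts per well plus 1 (log scale) of 6 genes in the 41 mural-leading wells by stage, 1 point per well with the median as a bar and the number of wells in brackets. The 11 adult wells have 22.1 to 145.5 counts of Acta2 and 0 of Kcnj8, while Rgs5 is found at E13, E15, P7 and in the adult.

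Fibroblast-leading wells were found at most stages: E11 gave 3, E12 gave 2, E18 gave 15, P4 gave 2, P7 gave 12 and the adult gave 6. The E13 and E15 plates gave none. Col1a1 counts were high in P7 wells and low in the 6 adult wells, a gene also picked after its values were seen. Col1a1, the main chain of type I collagen, had medians of 28.1 counts at E11, 17.0 at E18, 128 at P7 and 5.5 in the adult, with adult wells at 1.0 to 11.0 and P7 wells at 22.1 to 583.6. Dcn, the small proteoglycan decorin, had medians of 1.0, 10.0, 45.2 and 39.7 counts. In CPM, Col1a1 was at 2455 on E11 plate 1, 3577 and 5984 at E18, 14222 on P7 plate 1 and 1766 and 1510 in the adult, and Dcn at 103, 4775, 3352, 3499, 13182 and 12246. Col1a1 and Dcn helped choose the wells, which limits these values to a description.

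Genes outside the marker list also varied among fibroblast-leading wells. Slc6a13, a GABA and taurine carrier of meningeal fibroblasts (ENSMUSG00000030108, chromosome 6, 121300227 to 121337733, plus strand, overlapping Gm24855 on the other strand), was in 2 of 5 wells at E11 and E12, at most 2.0 counts, and in 30 of 35 later wells, with medians of 6.0 at E18 and 20.5 at P7. It was in 1.54% of all other wells. Fbln1, the matrix protein fibulin, was in 5 of 5 early wells, with a median of 13.0 counts, in 8 of 15 at E18 and in 5 of 12 at P7, while other wells had it in 10.5% at E12 and 39.9% at E18. Serping1, which encodes the complement C1 inhibitor, was in 2 of 15 wells at E18, 5 of 12 at P7 and 6 of 6 in the adult, while the other wells had it in 17.1% at E18, 5.17% at P7 and 4.37% in the adult. At E18 the share in fibroblast-leading wells was thus no higher than in other wells. Igf2 was in 38 of the 40 wells over all stages and in 4 of 6 in the adult, with up to 83.8 counts there. In the adult mural-leading wells it did not exceed 1.0 count.

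Endothelial and mural or fibroblast wells were compared directly on the 3 plates with at least 3 of each, E18 plate 1, P7 plate 1 and adult plate 2 (42 and 53 wells). Of 1769 genes tested, 120 were called higher in endothelial wells (6.78%) and 52 lower (2.94%), with a median of -0.10. Without E18 plate 1 the counts were 234 and 133, and the lower count was 126 without adult plate 2. Pglyrp1, a peptidoglycan recognition protein (ENSMUSG00000030413, chromosome 7, 18871331 to 18890459, plus strand), was at 248, 435 and 687 CPM in endothelial wells and at 0 in the others, at least 146-fold higher against a floor of 3 counts over the pooled wells. By the same measure Sox18 was at least 119-fold and the glutamine carrier Slc38a5 at least 102-fold higher. Pooling sets the plate aside: 30 of the 42 endothelial wells were from adult plate 2 and 30 of the 53 others from P7 plate 1. The bounds therefore hold for no single plate. Of the 53 wells 23 were sparse, and with 10 or more marker counts (38 and 30 wells, chosen after the data were seen) these bounds were 50.5, 41.3 and 35.4. Mfsd2a and Slc40a1, the iron exporter ferroportin, had 1 count each among the 53 wells. In the other direction, Slc6a13 was at 303 CPM over the pooled mural or fibroblast wells, with 287 on the P7 and 187 on the adult plate. It was at 0 in endothelial wells of all 3 plates, so at least 22.0-fold higher in mural or fibroblast wells. Islr, a matrix-associated protein, was at least 14.0-fold, Cyp1b1, a cytochrome P450, at least 12.8-fold and Tbx18, a T-box factor of mural cells, at least 12.0-fold higher. With 10 or more marker counts the bounds for Slc6a13, Islr, Cyp1b1 and Tbx18 were 63.6, 40.1, 36.7 and 34.2.

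List counts in this comparison are descriptions, since a low gene passed the filter only through the group where it was high. Of 32 endothelial genes 15 passed the filter, all called higher in endothelial wells, and on the barrier list 17 of 21 were. In the fibroblast list 8 of 11 were called lower in endothelial wells, and in the mural list 2 of 4, Cald1 and Tbx18. In the basement membrane list 3 of 17 genes were called, Fn1, Lama4 and Itga6, all higher in endothelial wells, with a median of 0.35 over the list. Fn1 was at 1076, 1816 and 1050.1 CPM in endothelial wells and at 12.3, 7.99 and 0 in the others. Col4a1 was at 1143, 1744 and 461 CPM against 1336, 1474 and 455, a difference of -0.16 ± 0.49 (SE, n = 3 plates). Its levels thus overlapped in these sums, which hold the sparse wells. Over all plates with such wells, the summed basement membrane list had a median of 1131 CPM in sparse wells. It was 18627 CPM in mural-leading and 13644 CPM in fibroblast-leading wells. The part of the sparse wells in the Col4a1 overlap and in the basement membrane calls is not given here.

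**Figure D5:**
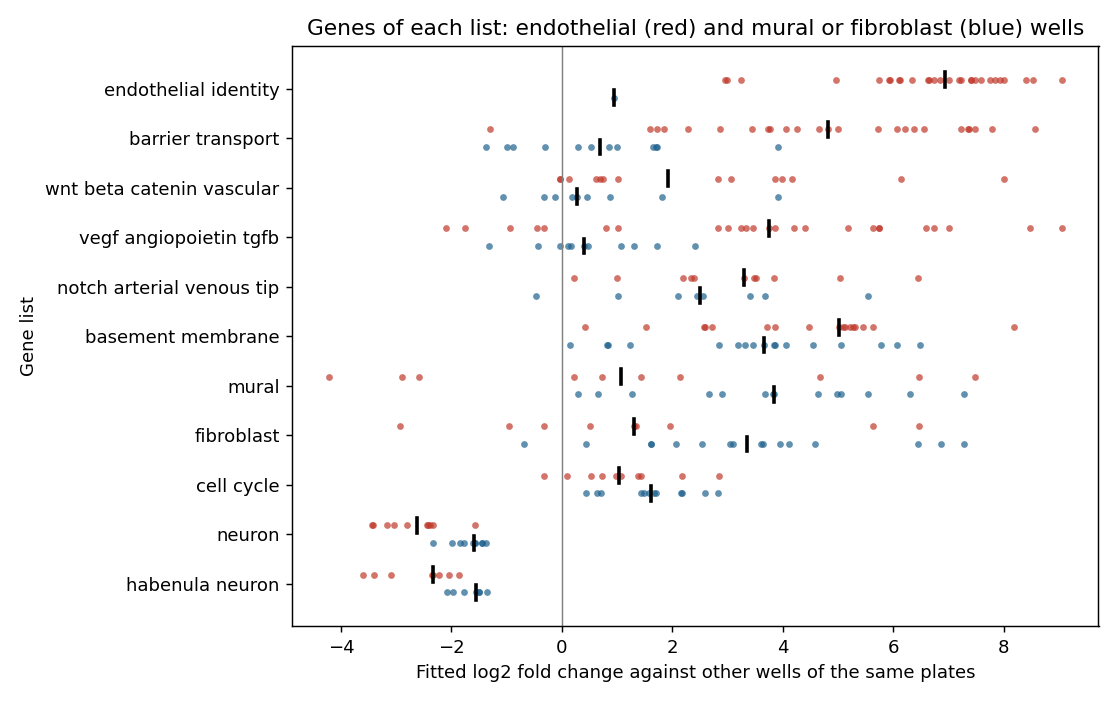
Fitted log2 differences from other wells of the same plates (horizontal) for each gene of 11 lists that passed the filter on low counts, in endothelial wells (red, 5 plates) and mural or fibroblast wells (blue, 9 plates), with black bars at the medians. The basement membrane list lies to the right in both, with medians of 5.02 and 3.67, and the endothelial and barrier lists have medians of 6.93 and 4.82 in endothelial wells.

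The share of wells in each group did not follow stage beyond the spread between plates. For the endothelial share rho with stage order over 15 plates was 0.415 (two-sided permutation p 0.124, Benjamini-Hochberg adjusted over the 2 shares 0.236) and r was 0.347 (permutation p 0.213, adjusted 0.425). For the mural or fibroblast share rho was 0.324 (permutation p 0.236, adjusted 0.236) and r was 0.0176 (permutation p 0.956, adjusted 0.956). With both E11 plates left out, since E11 is the stage lying farthest from the median, the endothelial rho was 0.184 and r 0.231 (permutation p 0.468), and the mural or fibroblast rho was 0.169 and r -0.15 (permutation p 0.677). Without E13 plate 2 the endothelial rho was 0.566 (permutation p 0.0388), and with wells thinned to 2000 molecules r was 0.532 (permutation p 0.0261) and rho 0.503 (p 0.0579), so the call depends on these choices. Without adult plate 2 the endothelial r was 0.0643 (permutation p 0.836), and without E13 plate 2 the mural or fibroblast r was 0.528 (permutation p 0.0511). On E18 plate 1 the endothelial share was 3.37% (exact 95% interval 1.55% to 6.30%) and on E18 plate 2 it was 0 of 110. On adult plate 1 it was 1.79% (0.0452% to 9.55%) and on adult plate 2 it was 8.77% (6.00% to 12.3%). Plates were sequenced 5 to a run, and the sources used here do not say which, so run and stage cannot be told apart.

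Readouts outside the marker lists were then compared with other wells of the same plate (the mitochondrial share had an upper limit of 20% in all kept wells), with an exact two-sided sign-flip permutation test over plates and adjustment over 8 comparisons. None passed, and with 5 plates the endothelial tests could not go below p 0.0625. Immediate early and heat-shock genes in endothelial wells reached that limit, at 6501 against 4008 CPM, higher on 5 of 5 plates (exact p 0.0625, adjusted 0.200), and the difference of 2493 CPM was 428 CPM without adult plate 2. On E18 plate 1 the difference was 0.00899 CPM, in effect a tie, and on the E12 plate and P7 plate 1 it was 14.3 and 68.1 CPM. In mural or fibroblast wells they stood at 5678 against 4141 CPM, higher on 6 of 9 plates (exact p 0.395, adjusted 0.395), and the difference of 1536 CPM was 433 CPM without adult plate 2. The mitochondrial share was 6.20% against 5.18% in endothelial wells, higher on 4 of 5 plates (exact p 0.250, adjusted 0.286), and 6.77% against 6.14% in mural or fibroblast wells, higher on 7 of 9 (exact p 0.195, adjusted 0.260). Cell cycle genes in endothelial wells were at 489 against 194 CPM, higher on 4 of 5 plates (exact p 0.125, adjusted 0.200), and the difference of 295 CPM was 101 CPM without the E12 plate, which rests mostly on 1 deep well. Cell cycle genes in mural or fibroblast wells had the smallest adjusted p, at 1130 against 279 CPM on average, a difference of 851 ± 990 CPM (SD, n = 9 plates), higher on 7 of 9 plates (exact p 0.0195, adjusted 0.156). The difference was 1703 CPM at E11, 2317 and 2211 on the E13 plates and 1053 at E15, against 86.8 to 205 CPM at E18 and P7 and below 0 on both adult plates. On E13 plate 2 the mural-leading wells had 3873 CPM, the sparse wells 2374 and the other wells 636. The unspliced share of counts was 18.8% in endothelial wells and 23.9% in others, lower on 4 of 5 plates (exact p 0.125, adjusted 0.200), and in mural or fibroblast wells 19.8% and 22.8%, lower on 8 of 9 plates (exact p 0.0781, adjusted 0.200). The latter difference, -3.03 percentage points, was -4.19 without adult plate 1 (exact p 0.00781, not adjusted). With at least 5 wells per plate it was -0.98 (exact p 0.594). Without adult plate 1 the mitochondrial difference of mural or fibroblast wells was 0.890 points (exact p 0.0391, not adjusted), so these calls depend on single plates.

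In the second set the same lists, without Cldn5, which was not analysed there, found 3 wells among 1082 kept wells on the 5 plates. The planned tests in that set need at least 3 wells of a group on a plate and could not be made. The well on plate 1 of the right habenula held 189.8 counts of the mural or fibroblast markers, with 113.5 of Col3a1 and 37.2 of Col1a1 and none of Rgs5. The well on the plate of both sides held 10.0 counts, 7.0 of them Dcn, and the well on plate 2 of the right habenula held 4.0 endothelial counts.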

How the data were processed

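Single cells of the mouse habenula were measured with Cel-seq2 on 20 plates of 384 wells, and the plate was the replicate. The authors deposited expected counts per gene and well, as total and as unspliced values, with no scaling between wells: each value is a molecular identifier count corrected for collisions among 4096 identifiers, found from the values. STAR 2.5.3a, Trim Galore and the mm10 build are named in the submitters' processing notes. Gene coordinates are from GENCODE M21 (GRCm38), in which 37938 of 37994 gene IDs were found, and spike-in rows stayed out of all totals. The tests had been designed for whole counts. As the values are expected counts, they were summed per plate and group and rounded, and whole molecules recovered from them served as an alternative.

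Fits used edgeR 4.0.16 (filterByExpr, TMM, glmQLFit and glmQLFTest, with its Benjamini-Hochberg adjusted p used for stage only) under R 4.3.3 with limma 3.58.1. The SE of a fitted difference is its size divided by the square root of the F value of glmQLFTest, and is not a spread over plates. Contrasts within plates had the plate as a block, and no p is given for them. DESeq2 1.42.0 was an alternative for stage. Other steps used Python 3.11.15, numpy 2.4.6, scipy 1.17.1 and pandas 2.3.3. Permutation tests used 100000 resamples or were exact. Intervals are exact (Clopper-Pearson, 95%), and they and the limit of 3 counts for a value of 0 cover counting error only. The scripts were tested on simulated data.

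The wells, lists and tests were chosen with earlier results of these data known. Named genes are the 12 markers, the 12 outside them with the largest difference of each group over other wells, the 8 largest each way between the groups, called or leading members of the lists, and the 8 of smallest p each way for stage, with others said to be picked after their values were seen. Alternatives covered the number of markers, depth minimum, thinning to 2000 molecules, wells above 3 times their plate's median (82 wells), scaling, low-count filters and leaving out each plate. The replicate numbers of plates at different stages share only a number.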

Additional observations from a re-analysis of the deposited data

Results flagged for a closer look

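A signal lay in data that the comparisons above do not use: in the second set, 1 well on plate 1 of the right habenula held 189.8 summed counts of the mural or fibroblast markers, and 1 well on the plate of both sides held 10.0, while neither plate of the left habenula had a well passing a list. The left plates kept 283 and 54 wells, so a count of 0 allows up to 1.06% and 5.56%. Shares were 0.358% and 0.752% on the right plates and 0.300% for both sides. A difference between sides cannot be read from these counts.

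In the 8 sets of plate differences between member and other wells, 5 had 1 plate far from the rest, where chance flags about 1 in 20 groups. For the unspliced share of endothelial wells it was E18 plate 1, at 1.16 percentage points above other wells, while the other 4 plates lay below 0. For the mitochondrial share of endothelial wells it was P7 plate 2, at -1.48 percentage points. For the cell cycle genes of endothelial wells it was the E12 plate, 1069 CPM above other wells, in a sum that holds sparse endothelial wells. For the immediate early and heat-shock genes of endothelial wells it was adult plate 2, 10752 CPM above other wells. For the unspliced share of mural or fibroblast wells it was adult plate 1, 6.21 percentage points above other wells.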

How the results depend on the processing

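No called result reversed its direction, while r of the mural or fibroblast share with stage, 0.0176, was -0.15 without the E11 plates and ran from -0.0629 to 0.528 when each plate was left out (endothelial r 0.0643 to 0.483). Against 68 wells passing the endothelial list and 160 passing the mural or fibroblast list (wells passing both counted in each), 2 markers gave 168 and 341, 4 markers 43 and 98, thinning left 79 on the second list, and 10 marker counts 96. With no low-count filter, genes lower in endothelial than other wells numbered 4112, lower in mural or fibroblast than other wells 108, endothelial against mural or fibroblast 414 higher and 844 lower, and after birth 41 higher and 65 lower. At 10 marker counts (chosen after seeing the data) 1925 genes were lower in endothelial and 126 higher and 377 lower in mural or fibroblast wells, and without deep wells 35 were lower there. DESeq2 gave 9 and 9 for stage. At least 5 wells per plate left the cell cycle difference of mural or fibroblast wells at 430 CPM (exact p 0.156), their unspliced difference at -0.98 points (exact p 0.594) their mitochondrial one at 0.306 and that of immediate early and heat-shock genes at 2666 CPM, and, on 2 plates, the endothelial differences at 37.9 CPM for cell cycle genes, 5376 CPM for immediate early and heat-shock genes, -3.21 points unspliced and 1.75 mitochondrial. Leaving out each plate gave these ranges: endothelial genes 460 to 519 higher and 869 to 1782 lower (the last without E18 plate 1), mural or fibroblast genes 80 to 191 higher (without adult plate 1) and 3 to 39 lower (3 without E15 plate 1, 39 without adult plate 1, 23 without P7 plate 1, 21 without E13 plate 2), direct comparison 138 to 234 and 77 to 133 (both without E18 plate 1), stage 0 to 4 and 0 to 17, endothelial rho 0.283 to 0.566 and mural or fibroblast rho 0.190 to 0.478. The unspliced difference of mural or fibroblast wells ran from -4.19 to -2.28 percentage points and the mitochondrial one from 0.372 to 0.890, with exact p 0.00781 and 0.0391 without adult plate 1. The cell cycle difference ran from 667 to 963 CPM there and from 101 to 394 CPM in endothelial wells, and the immediate early and heat-shock difference from 433 to 1896 and from 428 to 3116 CPM. Fitting stage with the replicate number as a block called 0 and 0 genes. With 2 embryonic plates their deviations mirror each other, so pairing could not be checked. Among values of named genes 505 held, 57 moved and 26 passed the threshold only in an alternative. Causes were not tested. Tests in the second set and stage at 5 wells per plate were not run. Few plates and 2 embryonic sums limit the stage test.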
